A study of Mus musculus with 6 samples.

Results

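The genes described here are 42 genes of DNA replication and mitosis, chosen by name: 20 replication genes, from *Mcm2* to *Rrm2*, and 22 mitotic genes, from *Mki67* onward. All 42 were present among the 16381 genes of the deposited table, and all 42 passed the filter on low values, since each had a mean of at least 100 normalized counts. They lie on 15 chromosomes and none lies on X or Y. The cells were activated ILC2s (aILC2s), group 2 innate lymphoid cells of wild-type female BALB/cJ mice aged 6 to 8 weeks, whose lungs were taken after 0.5 µg of intranasal IL-33 per day for 3 days. They were sorted to a purity above 95% as CD45+ cells without lineage markers that carried ST2 and CD127, plated at 10000 cells per well, and cultured for 24 h with 250 µM melatonin or with DMSO, the solvent, as vehicle. Both groups had therefore been activated by IL-33 in the mouse, and neither a culture without DMSO nor unactivated ILC2s were part of the comparison. Each group held 3 samples. The labels do not say whether these came from separate mice or cultures, so the p-values measure only the spread between these samples, which may be technical.

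DNA replication begins when origins are licensed: the loader proteins Cdc6 and Cdt1 place the ring-shaped MCM helicase on DNA in G1, and Cdc45 and the GINS complex switch the ring on in S phase. The clamp PCNA, opened by replication factor C, then holds the polymerases on their template, and ribonucleotide reductase makes the deoxynucleotides. In mitosis, Cdk1, Plk1 and the Aurora kinases drive entry and spindle assembly, the spindle checkpoint holds back the Cdc20-bound anaphase-promoting complex until chromosomes are attached, and kinesins and their partners complete cytokinesis. Transcripts of the first set typically peak at the G1 to S transition and are known as targets of E2F factors. Those of the second set peak in G2 and mitosis and are known for CHR elements and CCAAT boxes in their promoters. In ILC2s, expansion after an alarmin such as IL-33 involves cell division.

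Promoter sequence was examined first, since both sets are grouped by it in textbooks. In the RefSeq promoters of GRCm38.p6, each a window of 300 bases from 250 before to 50 after a start site, 35 of the 42 members had an entry, 16 of them replication and 19 mitotic genes. The E2F motif searched was TTTCGCGC or TTTGGCGC on either strand. It lay in 37.5% of replication promoters, in 5.26% of mitotic ones, where *Cdk1* was the single gene that held it, and in 0.929% of the promoters of 27025 genes. The CHR element was searched as TTTGAA or TTCGAA, of which the second reads the same on both strands. Of the replication promoters 25.0% held it, as did 78.9% of the mitotic and 21.7% of all promoters, and the box CCAAT lay in 68.8%, 84.2% and 41.1% of them. These letters are short, and a match is a description of sequence only.

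The promoters of 6 members are shown because these members moved in different directions. They are the last 250 bases before the start site in GRCm38.p6, read 5′ to 3′ on the strand of the gene, with E2F, CHR and CCAAT letters in capitals (ATTGG is CCAAT on the other strand). *Pcna* is at chr2:132253181-132253430 on the minus strand, *Mcm5* at chr8:75109259-75109508 on the plus strand, *Rrm2* at chr12:24708004-24708253 on the plus strand, *Cdk1* at chr10:69352913-69353162 on the minus strand, *Cdc20* at chr4:118437344-118437593 on the minus strand and *Ect2* at chr3:27153879-27154128 on the minus strand.
Pcna: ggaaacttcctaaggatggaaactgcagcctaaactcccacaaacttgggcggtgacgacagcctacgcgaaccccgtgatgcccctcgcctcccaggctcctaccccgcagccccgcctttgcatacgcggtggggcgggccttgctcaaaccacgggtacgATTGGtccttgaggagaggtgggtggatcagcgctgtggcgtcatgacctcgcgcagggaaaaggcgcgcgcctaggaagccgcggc
Mcm5: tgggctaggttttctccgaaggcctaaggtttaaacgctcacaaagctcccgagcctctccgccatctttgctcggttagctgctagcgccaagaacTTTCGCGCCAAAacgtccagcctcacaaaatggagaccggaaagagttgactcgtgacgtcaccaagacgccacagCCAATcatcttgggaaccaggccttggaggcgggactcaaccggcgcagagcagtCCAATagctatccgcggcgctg
Rrm2: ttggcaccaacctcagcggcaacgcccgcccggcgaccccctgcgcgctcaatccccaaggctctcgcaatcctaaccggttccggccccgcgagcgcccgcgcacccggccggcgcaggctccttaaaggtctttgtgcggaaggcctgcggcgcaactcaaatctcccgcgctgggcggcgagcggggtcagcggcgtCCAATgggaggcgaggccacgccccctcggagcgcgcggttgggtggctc
Cdk1: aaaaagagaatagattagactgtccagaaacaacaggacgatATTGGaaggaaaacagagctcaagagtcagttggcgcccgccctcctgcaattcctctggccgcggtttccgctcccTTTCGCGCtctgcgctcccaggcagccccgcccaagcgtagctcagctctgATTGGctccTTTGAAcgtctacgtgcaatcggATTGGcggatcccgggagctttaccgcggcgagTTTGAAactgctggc
Cdc20: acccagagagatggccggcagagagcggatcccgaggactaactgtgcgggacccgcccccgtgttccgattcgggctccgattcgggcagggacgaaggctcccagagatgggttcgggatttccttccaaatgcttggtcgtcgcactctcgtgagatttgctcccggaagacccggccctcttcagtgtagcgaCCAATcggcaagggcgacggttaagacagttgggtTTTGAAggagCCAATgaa
Ect2: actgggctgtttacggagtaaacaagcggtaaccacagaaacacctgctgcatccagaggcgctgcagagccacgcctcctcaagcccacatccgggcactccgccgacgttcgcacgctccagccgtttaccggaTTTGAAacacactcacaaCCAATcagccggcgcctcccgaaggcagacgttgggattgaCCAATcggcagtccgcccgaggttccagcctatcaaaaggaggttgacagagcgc
In the *Mcm5* promoter the forward E2F motif and the other one on the opposite strand overlap. The *Cdk1* promoter held an E2F motif together with CHR elements and CCAAT boxes, and those of *Cdc20* and *Ect2* held both mitotic elements. In the stretches shown for *Pcna* and *Rrm2* a CCAAT box was the only match.

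Every value below is a normalized count, an estimated read count of the gene divided by a size factor of its sample. The estimated counts of a sample summed to 17056267 at the lowest and 20511700 at the highest, and the members' values lay between 298 and 36820, far above a floor of 3 counts. Together, the 42 members took between 1.08% and 1.16% of the total of each sample. Fold changes are log2 differences, melatonin minus vehicle, of the normalized count plus 1, tested by limma with adjustment over 14419 genes. With 3 samples a group, the smallest two-sided p of an exact permutation test is 0.1, so calls for single genes rest on the limma fit. The labels number the melatonin libraries apart from the vehicle libraries, and a batch that followed those numbers and the treatment cannot be told apart. In bulk RNA, fewer dividing cells and less of a transcript per dividing cell cannot be told apart either.

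After melatonin, replication transcripts were mostly lower and mitotic transcripts were mixed. Of the 20 replication genes, 11 fell, 2 rose and 7 were not called by limma at an adjusted p of 0.05. Leaving out 1 sample gave between 7 and 12 replication genes lower and between 1 and 3 higher. Of the 22 mitotic genes, 6 fell, 5 rose and 11 were not called, and the balance of the mitotic calls moved with scaling: 4 lower and 7 higher by quantile normalization, 6 lower and 3 higher by upper quartile scaling. Of mitotic genes, 1 in place of 5 was called higher when melatonin replicate 2 or any 1 vehicle sample was left out. With the relation of level to transcript length removed in each sample (the length correction), 7 mitotic genes were lower and none higher. Of the replication genes 13 were then lower and none higher, where 29.0% of all genes were lower and 18.4% higher. Over all genes tested, 24.7% were called lower and 24.5% higher, and among the 9990 with a mean of at least 100, where all members lie, 26.4% and 30.7%. The share of replication genes called lower, 55.0%, was above that background, while the shares of mitotic genes, 27.3% lower and 22.7% higher, were near it or below it. The median fold change was −0.25 for replication genes, with a range from −0.80 to 0.39. It was 0.01 for mitotic genes, with a range from −0.54 to 0.42, and 0.00 for all genes tested. For replication genes it was −0.13 by quantile normalization and −0.36 under the length correction.

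The changes were small beside those of many other genes. The median size of the fold change, regardless of sign, was 0.26 in replication and 0.24 in mitotic genes, against 0.38 in all genes whose mean reached 100. In 12 replication genes all 3 melatonin values lay below all 3 vehicle values, and in 2 they lay above, where 30.3% and 30.0% of all genes tested were separated in those directions. Among mitotic genes 7 were separated downward and 7 upward. These counts describe the listed genes, which share samples and are not replicates of one another.

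**Figure D1:**
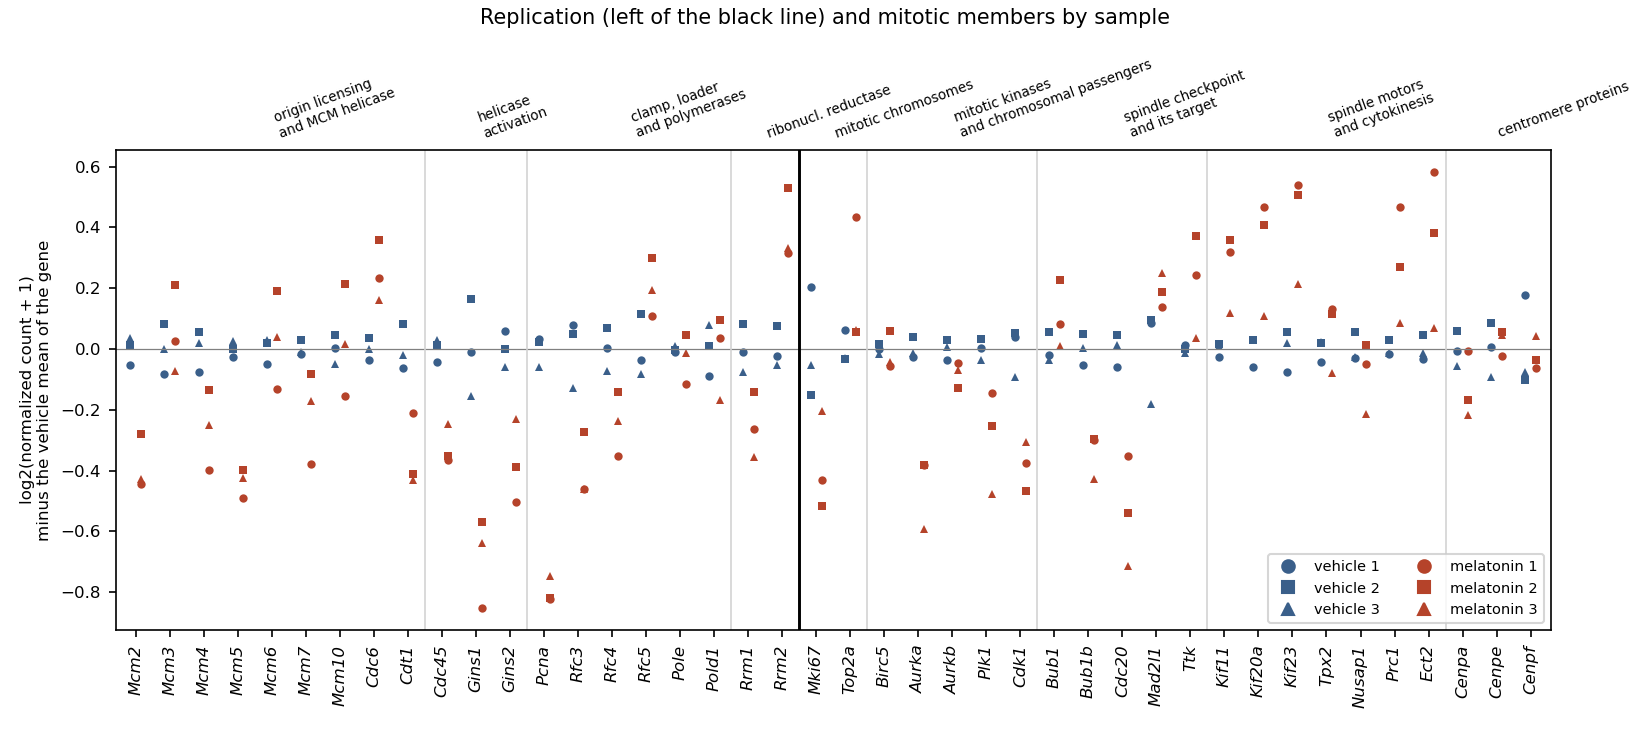
Each point is the log2(normalized count + 1) of a member in 1 sample minus the vehicle mean of that gene, with vehicle in blue, melatonin in red and symbols for replicates 1, 2 and 3. The black line parts the 20 replication genes from the 22 mitotic genes, and thin lines part their roles. *Pcna* and *Gins1* lie lowest, and the red points of *Rrm2* and of 5 genes of spindle motors and cytokinesis lie above the blue ones.

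Origin licensing and the MCM helicase were split by subunit. Of 9 genes, *Mcm2*, *Mcm4*, *Mcm5* and *Cdt1* fell and *Cdc6* rose, with a median of −0.21. These were 44.4% lower and 11.1% higher, beside 26.4% and 30.7% of all genes whose mean reached 100. Under the length correction 5 were lower and none higher. *Mcm5* (chromosome 8 of GRCm39, 75836140 to 75856231) had 10496, 11181 and 10968 normalized counts in melatonin replicates 1, 2 and 3 and 14458, 14741 and 14985 in vehicle. The groups were apart by more than their spread, with a fold change of −0.44 (SE 0.07, adjusted p = 0.0012 by limma). No other of the 9 genes changed by more. *Mcm2* had 8142, 9141 and 8234 in melatonin and 10700, 11196 and 11370 in vehicle, a fold change of −0.38 (SE 0.08, adjusted p = 0.0037 by limma).

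The other subunits of the same 6-part ring differed among themselves. *Mcm6* had 9768, 12208 and 10997 normalized counts in melatonin and 10346, 10850 and 10918 in vehicle, and the melatonin values enclosed the vehicle ones. *Mcm3* had 9059, 10297 and 8464 against 8413, 9428 and 8899, which also overlapped. Their fold changes were 0.03 (SE 0.09) and 0.05 (SE 0.09), with adjusted p-values of 0.79 and 0.65 by limma, and *Mcm10*, a scaffold of the activated helicase, had 1558, 2012 and 1753 against 1737, 1790 and 1676 (0.03, SE 0.10). *Mcm4* fell by 0.26 (SE 0.09, adjusted p = 0.034 by limma) and *Mcm7* had −0.21 (SE 0.09, adjusted p = 0.077 by limma), although all 3 melatonin values of *Mcm7*, 5965, 7329 and 6881, were below the lowest vehicle value, 7657. The difference between *Mcm5* and *Mcm6* on the log2 scale was 0.10, −0.13 and 0.00 in melatonin against 0.48, 0.44 and 0.46 in vehicle, and that between *Mcm2* and *Mcm3* was −0.15, −0.17 and −0.04 against 0.35, 0.25 and 0.35. These pairs were chosen after their values were seen and are given without a test.

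The MCM loaders were called in opposite directions, although the rise was lost under the length correction. *Cdc6*, the ATPase that recruits the ring to origins, had 3448, 3759 and 3282 normalized counts in melatonin and 2862, 3007 and 2930 in vehicle, a rise of 0.25 (SE 0.08, adjusted p = 0.025 by limma). *Cdt1*, its partner, had 1852, 1609 and 1589 in melatonin and 2052, 2269 and 2111 in vehicle, a fold change of −0.35 (SE 0.09, adjusted p = 0.011 by limma). In neither gene did the groups overlap. The rise of *Cdc6* was called in 2 of the 6 fits that left out 1 sample, with values between 0.20 and 0.30: it was lost without melatonin replicate 2 or any vehicle sample. Under the length correction *Cdc6* was at 0.00 (adjusted p = 0.96 by limma) and *Cdt1* at −0.45. *Mcm4*, between −0.32 and −0.19, was also called in 2, having lost its call without melatonin replicate 3 or any vehicle sample, and *Cdt1*, between −0.42 and −0.31, lost its call without vehicle replicate 2.

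All 3 genes of helicase activation fell, where 26.4% of all genes whose mean reached 100 were lower. *Gins1* (chromosome 2, 150747320 to 150773202), a subunit of the GINS complex, had 298, 363 and 346 normalized counts in melatonin and 535, 604 and 484 in vehicle, a mean of 335 ± 33.6 (SD, n = 3) against 541 ± 60.6. Its mean fell by 38.0%, with a fold change of −0.69 (SE 0.13, adjusted p = 0.0025 by limma). *Cdc45*, which completes the active helicase with GINS, had 1923, 1943 and 2088 against 2405, 2501 and 2531, a fold change of −0.32 (SE 0.07, adjusted p = 0.0071 by limma). *Gins2* fell by 0.37 (SE 0.09, adjusted p = 0.0087 by limma). The 3 genes kept their calls in all 6 fits that left out 1 sample. *Gins2* overlaps *Gse1* in the annotation, and their transcripts match over 2758 bases. *Gse1* had 299, 376 and 331 normalized counts in melatonin and 248, 197 and 224 in vehicle, the opposite direction. Stretches shared by *Gins2* and *Gse1* may be counted for either.

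*Pcna* (chromosome 2, 132091082 to 132095234), which encodes the sliding clamp, had the largest fold change of the 42 genes as deposited, a rank that it lost when summed with a near copy. It had 3651, 3663 and 3849 normalized counts in melatonin and 6618, 6572 and 6205 in vehicle, so that the groups were far apart relative to their spread. The fold change was −0.80 (SE 0.07, adjusted p = 8.5e-05 by limma), and the mean fell by 42.4%. The size of this fall depends on how reads were divided with a near copy. *Pcna-ps2*, a processed pseudogene on chromosome 19 (9260744 to 9261524) whose transcript matches that of *Pcna* at 99.2% over 781 bases, was listed with 4312, 4434 and 4612 in melatonin and 3875, 3966 and 3448 in vehicle, the opposite direction.

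Summed with *Pcna-ps2*, *Pcna* came to 7963, 8097 and 8461 normalized counts in melatonin and 10492, 10538 and 9654 in vehicle. The sum was lower in melatonin by 0.32 (SE 0.07, adjusted p = 0.0068 by limma), which kept the direction and the call at a smaller size, and the pseudogene row took 54.5% of the sum in melatonin and 36.8% in vehicle. Reads that cover none of the few bases that differ cannot be assigned to either gene by sequence alone, so −0.80 is uncertain in size. The sum changed by less than *Gins1* (−0.69) and *Cdc20* (−0.54). For *Cdc20*, *Cdc6*, *Mad2l1* and *Rfc5*, the other members with such a pseudogene in the table, the pseudogene held 1.7% or less of the sum and the fold change moved by no more than 0.01.

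Of the clamp loader, 2 of 5 subunits fell and the others were not called, where 26.4% of all genes whose mean reached 100 were lower. Replication factor C opens the clamp, and its subunits *Rfc3* and *Rfc4* fell by 0.40 (SE 0.09, adjusted p = 0.0079 by limma) and 0.24 (SE 0.08, adjusted p = 0.04 by limma). *Rfc5* had 3738, 4274 and 3968 normalized counts in melatonin and 3384, 3762 and 3281 in vehicle, with a fold change of 0.20 (SE 0.09) that was not called (adjusted p = 0.081 by limma). The lowest melatonin value of *Rfc5* lay below the highest vehicle value, and under the length correction it was at −0.03. *Rfc1* and *Rfc2*, which are not among the 42 genes, were at −0.10 and −0.09, not called, and *Rfc2* was called lower after that correction (−0.34). Of the catalytic subunits of replicative polymerases, *Pole* was at −0.03 (SE 0.08) and *Pold1* at −0.01 (SE 0.09), both within their spread. *Pold1* had 4194, 4372 and 3643 against 3844, 4115 and 4324, and was called lower under the length correction (−0.22). *Pola1*, which is not among the 42 genes, had 791, 1016 and 845 against 1115, 1048 and 1023. Its fold change of −0.27 (SE 0.11) was not called (adjusted p = 0.065 by limma). Under the length correction *Pola1* was called lower (−0.51). *Rfc4* was called in 1 of the 6 fits that left out 1 sample, with values between −0.29 and −0.19, and was kept there only without melatonin replicate 2. *Rfc5* overlaps *Wsb2* and *Rfc4* overlaps *Eif4a2* in the annotation, with matches over 2121 and 341 bases. *Wsb2* had 2519, 2348 and 1932 in melatonin and 870, 1319 and 1696 in vehicle, higher in melatonin. *Eif4a2* had 1436, 1655 and 1739 against 1751, 1678 and 1525, which overlapped. Stretches shared by overlapping genes may be counted for either.

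The subunits of ribonucleotide reductase went in opposite directions. *Rrm2* (chromosome 12, 24757811 to 24764145), the small and cell-cycle regulated subunit, had 31802, 36820 and 32132 normalized counts in melatonin and 25120, 26922 and 24592 in vehicle. It rose by 0.39 (SE 0.09, adjusted p = 0.0069 by limma). *Rrm1*, the large subunit with the catalytic and regulatory sites, had 10079, 10953 and 9443 against 12021, 12810 and 11480, a fall of 0.25 (SE 0.08, adjusted p = 0.034 by limma). The log2 difference between both subunits was 1.66, 1.75 and 1.77 in melatonin and 1.06, 1.07 and 1.10 in vehicle. The call of *Rrm2* held in all 6 fits that left out 1 sample but was lost under the length correction (0.23, adjusted p = 0.077 by limma), where *Rrm1* was at −0.50. The call of *Rrm1*, between −0.31 and −0.20, held only without melatonin replicate 1 or 2. Per kilobase of transcript, *Rrm2* was the most abundant member in vehicle, at 9743 normalized counts per kb, followed by *Birc5* at 6096 and *Pcna* at 4259, and *Cenpf* was the lowest at 107.

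**Figure D2:**
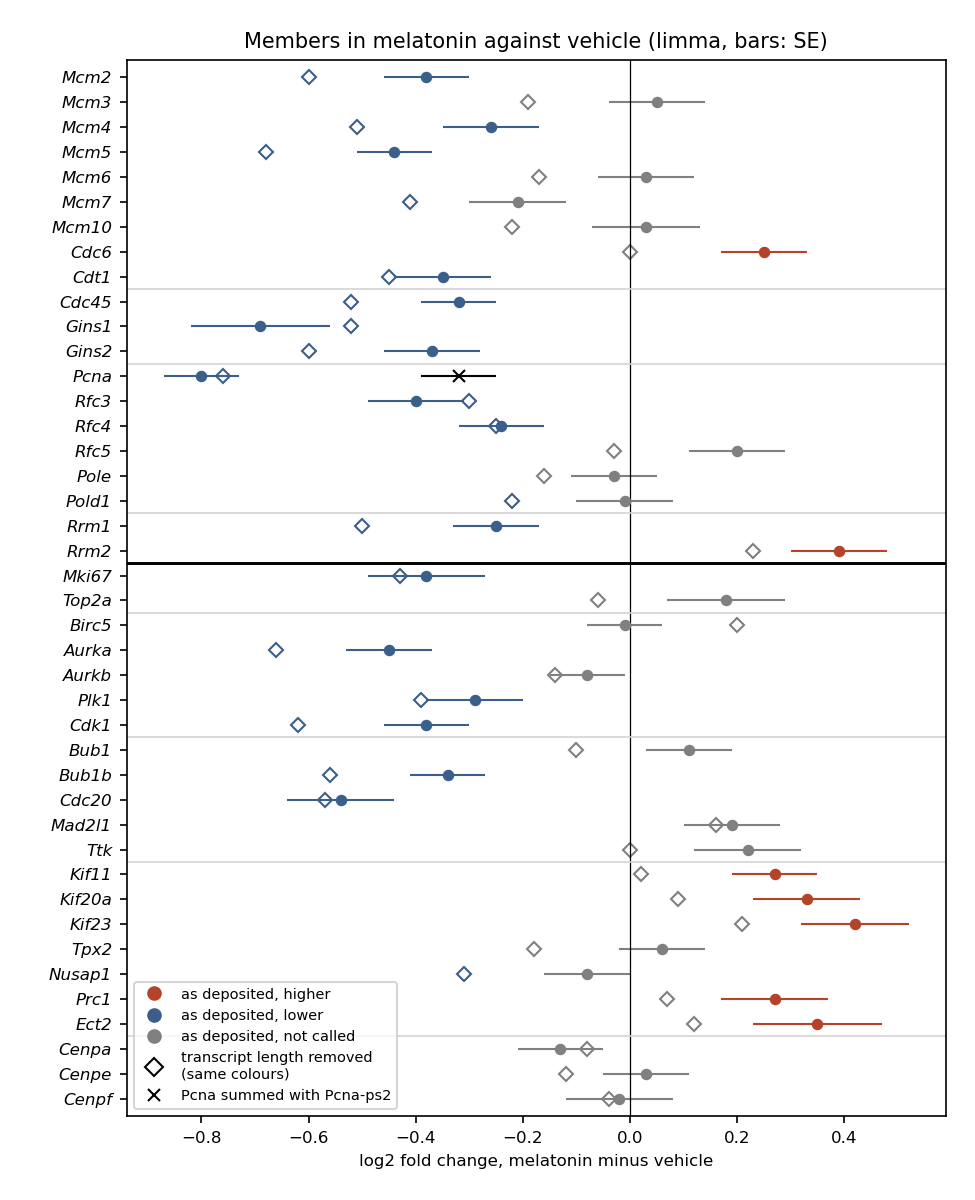
Filled circles are log2 fold changes, melatonin minus vehicle, with their standard errors, in red where limma called the gene higher, blue where lower and grey where not called. Open diamonds are the values after the relation of level to transcript length was removed, in the same colours, and the cross is *Pcna* summed with *Pcna-ps2*. Blue circles fill the upper part, and each red circle has a grey diamond to its left.

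Of the mitotic genes, the kinases were lower or were not called. *Cdk1*, *Plk1* and *Aurka* fell, and *Aurkb* and *Birc5*, partners in the chromosomal passenger complex, were not called. *Aurka*, the kinase of spindle poles, had 3236, 3232 and 2795 normalized counts in melatonin and 4138, 4335 and 4171 in vehicle, a fall of 0.45 (SE 0.08, adjusted p = 0.0023 by limma). *Cdk1*, the master kinase of mitotic entry, fell by 0.38 (SE 0.08, adjusted p = 0.0043 by limma), and *Plk1* by 0.29 (SE 0.09, adjusted p = 0.029 by limma). *Birc5*, which encodes survivin, had 5745, 6226 and 5800 against 5980, 6040 and 5902, a fold change of −0.01 (SE 0.07). For *Aurkb* it was −0.08 (SE 0.07). *Plk1* was called in 1 of the 6 fits that left out 1 sample, that without melatonin replicate 1, with values between −0.36 and −0.20.

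In the spindle checkpoint, the target and a component of the inhibitor fell, and the other 3 members were not called. *Cdc20* (chromosome 4, 118290098 to 118294610), the activator of the anaphase-promoting complex, had 4324, 3801 and 3365 normalized counts in melatonin and 5305, 5702 and 5574 in vehicle. This was the largest mitotic change, −0.54 (SE 0.10, adjusted p = 0.0024 by limma). *Bub1b*, which encodes the checkpoint protein BubR1, had 3434, 3439 and 3139 against 4068, 4369 and 4235, a fall of 0.34 (SE 0.07, adjusted p = 0.0057 by limma). *Mad2l1*, whose protein binds and restrains Cdc20, had 4046, 4183 and 4367 against 3899, 3920 and 3241, and the kinase *Ttk* had 1051, 1150 and 912 against 896, 889 and 881. Both were higher in all 3 melatonin samples than in any vehicle sample, but at 0.19 (SE 0.09) and 0.22 (SE 0.10) neither was called (adjusted p = 0.11 and 0.1 by limma). *Bub1*, with 2089, 2309 and 1987 against 1945, 2048 and 1924, was at 0.11 (SE 0.08). With the relation of level to transcript length removed from each sample, *Mad2l1* was at 0.16, *Ttk* at 0.00 and *Bub1* at −0.10.

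Spindle motors and cytokinesis held 5 of the 7 members that rose, 5 of the group's 7 genes where 30.7% of all genes whose mean reached 100 were higher. Under the length correction none of the 5 was called. *Kif23*, the kinesin of the centralspindlin complex, had 2321, 2272 and 1854 normalized counts in melatonin and 1516, 1662 and 1618 in vehicle. It rose by 0.42 (SE 0.10, adjusted p = 0.0088 by limma). *Prc1*, which bundles midzone microtubules, had 7303, 6365 and 5598 against 5225, 5386 and 5233, a rise of 0.27 (SE 0.10, adjusted p = 0.047 by limma). *Ect2*, which activates RhoA at the cleavage furrow, rose by 0.35 (SE 0.12), *Kif20a*, a midzone kinesin, by 0.33 (SE 0.10) and *Kif11*, the motor that pushes spindle poles apart, by 0.27 (SE 0.08), with adjusted p-values of 0.043, 0.025 and 0.027 by limma.

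Within the melatonin group these rises were uneven. *Ect2* had 2736, 2381 and 1917 in melatonin replicates 1, 2 and 3 and 1787, 1886 and 1808 in vehicle, so that replicate 3 lay just above the vehicle samples. In *Kif23*, *Kif20a* and *Prc1* too, melatonin replicate 3 had the lowest value of its group. *Nusap1*, a microtubule-binding protein, had 4509, 4707 and 4023 against 4577, 4850 and 4583 (−0.08, SE 0.08), and *Tpx2*, the activator of Aurora A, was at 0.06 (SE 0.08). *Kif23* kept its call in all 6 fits that left out 1 sample. *Kif11* (0.22 to 0.34) and *Kif20a* (0.26 to 0.44) kept theirs in 2, and lost them without melatonin replicate 2 or any vehicle sample, whereas *Prc1* (0.18 to 0.37) and *Ect2* (0.23 to 0.48) kept theirs in 1, that without melatonin replicate 3. *Kif20a* overlaps *Brd8* and *Cdc23*, with matches over 338 and 991 bases, and *Prc1* overlaps *Rccd1*, over 674 bases. *Brd8* had 3457, 3030 and 2287 in melatonin and 1873, 1943 and 1958 in vehicle. *Cdc23* had 2596, 2587 and 2245 against 2097, 2028 and 1976, and *Rccd1* 360, 390 and 351 against 285, 344 and 280. All were higher in melatonin, the same direction as *Kif20a* and *Prc1*, and shared stretches may be counted for either gene.

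*Mki67*, the common marker of cycling cells, had 4170, 3931 and 4877 normalized counts in melatonin and 6463, 5060 and 5417 in vehicle. It fell by 0.38 (SE 0.11, adjusted p = 0.022 by limma), and the groups did not overlap. *Top2a*, which untangles chromosomes, had 12475, 9602 and 9656 against 9653, 9026 and 9053, with melatonin replicate 1 well above the other 5 samples. Its fold change of 0.18 (SE 0.11) was not called and came to 0.06 without that sample, the lowest of its leave-one-out values. The call of *Mki67* was lost without melatonin replicate 2, vehicle replicate 1 or vehicle replicate 3, where its values stayed between −0.47 and −0.28. None of the 3 centromere genes was called by limma. *Cenpa*, the centromeric histone, had 3429, 3066 and 2964 against 3430, 3590 and 3314 (−0.13, SE 0.08), the kinetochore motor *Cenpe* had 1543, 1629 and 1618 against 1575, 1665 and 1470 (0.03, SE 0.08), and *Cenpf* was at −0.02 (SE 0.10).

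Averaged over genes, the sets differed in how they sat in each sample. The mean log2 level of the 20 replication genes was 11.81, 11.97 and 11.87 in melatonin replicates 1, 2 and 3 and 12.05, 12.12 and 12.05 in vehicle. For the 22 mitotic genes it was 11.75, 11.70 and 11.59 against 11.70, 11.72 and 11.66, and the melatonin values enclosed the vehicle ones. The difference, replication minus mitotic, was 0.06, 0.27 and 0.28 in melatonin and 0.35, 0.40 and 0.38 in vehicle, which is 0.20 ± 0.12 (SD, n = 3) against 0.38 ± 0.03. Melatonin replicate 1 had both the lowest replication mean and the highest mitotic mean of the 6 samples, and without it the other 2 melatonin samples were still below the 3 vehicle samples. Since the members were listed with results of these samples known, the difference is given without a p.

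**Figure D3:**
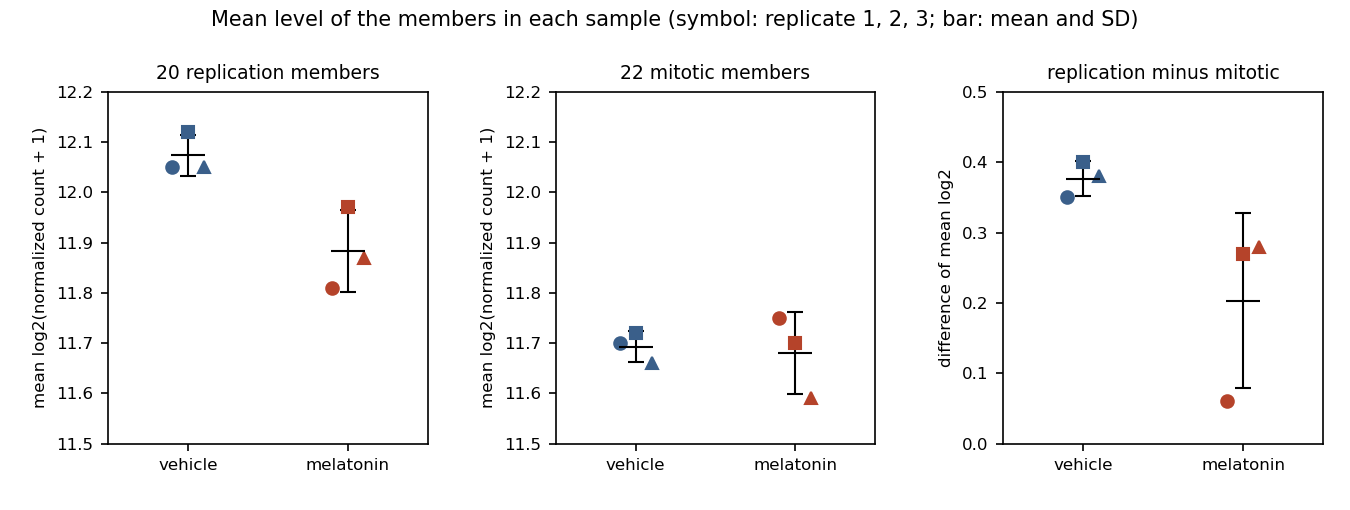
The left and middle panels show the mean log2(normalized count + 1) of the 20 replication and 22 mitotic genes in each sample, and the right panel their difference. Circles, squares and triangles are replicates 1, 2 and 3, and bars are the group mean and SD. Replication means lie at 11.81 to 11.97 in melatonin and 12.05 to 12.12 in vehicle, while mitotic means overlap.

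Transcript length went weakly with the fold changes across the whole table. Pearson's r between log2 length and log2 fold change was 0.17 across the 14391 tested genes with a length, 0.53 across the 20 replication genes and 0.08 across the 22 mitotic genes, each given as a description across genes that share the same libraries. Where the mean reached 100, the median fold change was −0.28 for canonical transcripts under 1500 bases, 0.04 from 1500 to 3000, 0.17 from 3000 to 4500 and 0.12 above 4500 bases. The members in the same classes had medians of −0.26 (4 genes), −0.23 (12 genes), 0.02 (14 genes) and 0.00 (12 genes). The member medians lay below those of all genes in each class but the shortest, while single members such as *Rrm2*, *Kif23* and *Ect2* lay above them. The median length was 3172 bases for members called lower and 4026 for members called higher, while the replication and mitotic sets had like medians of 3452 and 3608 bases.

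When the relation of level to length was removed from each sample before the test, none of the 7 members that had risen was still called, and the 17 that had fallen remained called. The replication set then had 13 genes lower and none higher, with a median of −0.36, and the mitotic set 7 lower and none higher, with a median of −0.09. In that fit 29.0% of 14391 genes were called lower and 18.4% higher, and the median of all genes was −0.10. *Rrm2* stood at 0.23 (adjusted p = 0.077 by limma) and *Kif23* at 0.21 (adjusted p = 0.063), *Ect2* at 0.12, *Kif20a* at 0.09, *Prc1* at 0.07, *Kif11* at 0.02 and *Cdc6* at 0.00. *Mcm7*, *Pold1* and *Nusap1* were called lower in addition, at −0.41, −0.22 and −0.31. Whether length itself, or a feature of library preparation that goes with it, sets these values was not tested. The split between subunits held in part: *Mcm5* was at −0.68 and *Mcm2* at −0.60, against −0.17 for *Mcm6* and −0.19 for *Mcm3*, which were not called.

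**Figure D4:**
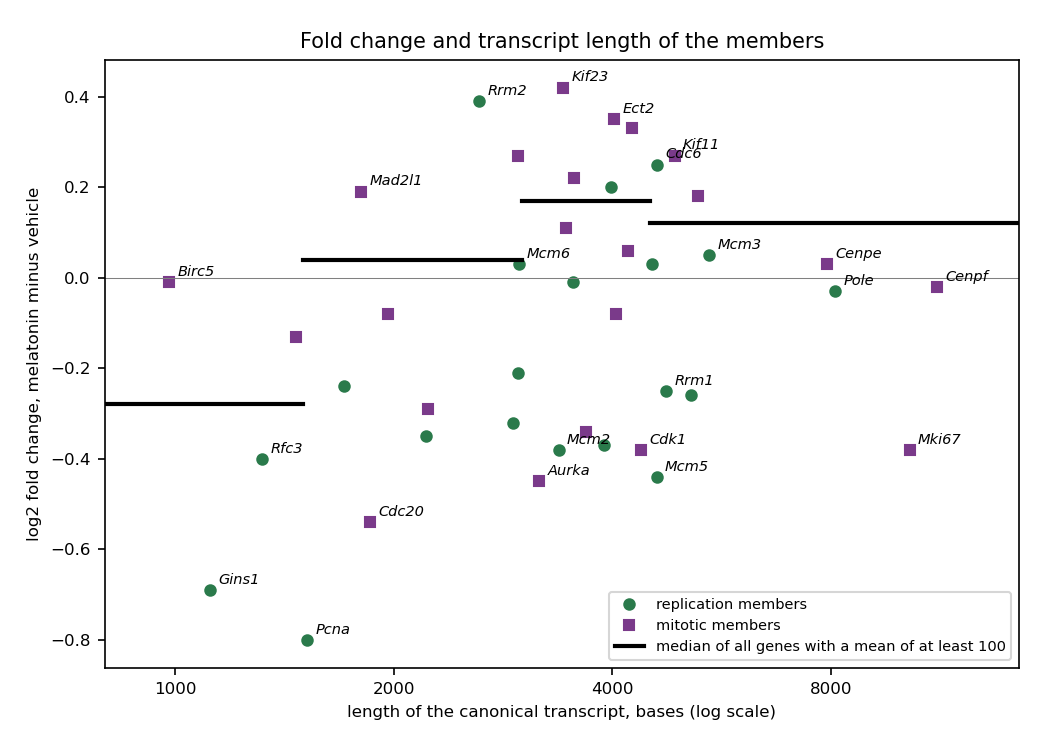
Each point is a member, with the length of its canonical transcript in bases on a log2 axis and its log2 fold change, melatonin minus vehicle, on the other. Green circles are replication genes, purple squares mitotic genes, and black bars the median, in the same length class, of all genes whose mean reached 100. In the middle classes *Rrm2*, *Kif23* and *Ect2* lie above the bars and most replication genes below them.

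CHR elements lay in the promoters of *Aurka*, *Cdc20*, *Plk1*, *Cdk1*, *Bub1b*, *Mki67*, *Cdc45*, *Mcm2* and *Rfc3*, which fell, and of *Kif23*, *Ect2*, *Prc1* and *Kif11*, which rose, as well as *Bub1*, *Cenpa*, *Cenpf*, *Top2a*, *Ttk* and *Mcm7*, which were not called. E2F motifs lay in those of *Mcm5*, *Cdt1*, *Rfc3* and *Cdk1*, which fell, and of *Mcm3*, *Mcm6* and *Mcm7*, which were not called. No member that rose and had a promoter entry held an E2F motif, and whether the motifs go with direction was not tested. For *Pole*, *Aurkb*, *Gins2*, *Tpx2*, *Kif20a*, *Mcm4* and *Gins1* no promoter was used.

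The wider pathways were read from 176 further replication, mitosis and regulator genes, grouped by textbook role. Of these, 49 were called higher and 27 lower, 27.8% and 15.3%, with a median of 0.06, beside 30.7% and 26.4% of all genes whose mean reached 100, and the length correction gave 32 higher and 51 lower, near the 18.4% and 29.0% of all genes in that fit. Of the 8 other genes of deoxynucleotide supply, 4 were lower and 1 higher, with a median of −0.21, or 3 and 1 with a median of −0.27 under the length correction. Thymidine kinase *Tk1* had 2332, 2088 and 2199 normalized counts in melatonin and 3846, 3813 and 3954 in vehicle, a fall of 0.81 (SE 0.07, adjusted p = 9.8e-05 by limma). *Dut*, the dUTPase, fell by 0.68 (SE 0.13, adjusted p = 0.0025 by limma). *Samhd1*, which degrades deoxynucleotides, had 3577, 4659 and 4335 against 1839, 1818 and 1580 and rose by 1.26 (SE 0.11, adjusted p = 8.7e-05 by limma), the opposite direction to *Tk1* and *Dut*.

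Further replication genes were called in both directions. Among 18 other genes of origin licensing and firing, 3 rose and 1 fell, 16.7% and 5.56%, both below the shares over all genes. Their median was −0.02, and the counts were 2 and 5 under the length correction. *Donson*, a factor of helicase activation and fork stability, rose by 0.66 (SE 0.12) and the helicase *Recql4* fell by 0.50 (SE 0.13). Their adjusted p-values were 0.0022 and 0.012 by limma. *Topbp1*, which helps to fire origins, was at 0.13 (SE 0.07). Among 26 other fork enzymes, 4 rose and 5 fell, 15.4% and 19.2%, with a median of −0.12, while upper quartile scaling gave 4 and 12 and the length correction 3 and 13 (median −0.28). In 14 of the 26 all 3 melatonin values lay below all vehicle values and in 4 above them, where over all genes tested 30.3% lay below and 30.0% above. *Pole4*, a small subunit of polymerase epsilon, had 10053, 9051 and 8994 against 6426, 6651 and 5966 (0.56, SE 0.08), and the ribonuclease subunit *Rnaseh2b* fell by 0.85 (SE 0.12), at adjusted p-values of 0.00072 and 0.00075 by limma.

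Of 32 other centromere and kinetochore genes 14 rose and 5 fell, 43.8% and 15.6%, with a median of 0.16, beside 30.7% and 26.4% of all genes whose mean reached 100. The length correction gave 10 and 4. The largest changes called were *Nsl1*, of the MIS12 complex, at 0.90 (SE 0.13, adjusted p = 0.00065 by limma) and *Cenpw* at −1.05 (SE 0.10, adjusted p = 0.00012 by limma), which had 358, 377 and 410 against 835, 799 and 742. The checkpoint gene *Bub3* fell by 0.32 (SE 0.08). Of 19 condensin and cohesin genes 6 rose and 1 fell, with a median of 0.14. The share that rose, 31.6%, was near that of all genes whose mean reached 100, and the length correction gave 3 higher and 5 lower. *Esco2*, the cohesin acetyltransferase, rose by 0.55 (SE 0.08), *Rad21*, the cleaved cohesin subunit, fell by 0.36 (SE 0.09), and *Ncaph2* was at −0.01 (SE 0.07).

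Of 21 other spindle and cytokinesis genes 7 rose and 2 fell, with a median of 0.12. The 33.3% that rose were near the 30.7% of all genes whose mean reached 100, the 9.52% that fell were below the 26.4%, and the counts became 1 higher and 4 lower under the length correction. *Kif2c* rose by 0.49 (SE 0.08), *Kif15* fell by 0.37 (SE 0.09) and *Tacc3* was at 0.00 (SE 0.08). The list for the anaphase-promoting complex held 18 genes, with its partners *Ube2c*, *Ube2s*, *Fzr1* and *Fbxo5* among them. Of the 18 genes 3 rose and 5 fell, 16.7% and 27.8%. These counts were 4 and 3 with samples scaled to the same total, 3 and 7 with upper quartile scaling and 3 and 8 under the length correction. *Anapc15* had 478, 558 and 593 against 1289, 1380 and 1284, a fall of 1.28 (SE 0.10, adjusted p = 6e-05 by limma). *Fbxo5*, the inhibitor Emi1, rose by 0.53 (SE 0.08), and the subunit *Anapc5* by 0.43 (SE 0.07). Of 11 mitotic entry kinases and phosphatases 2 rose, 18.2%, and none was lower (2 and 2 under the length correction), among them *Mastl* at 0.52 (SE 0.11), with *Cdc25b* at 0.10 (SE 0.08).

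**Figure D5:**
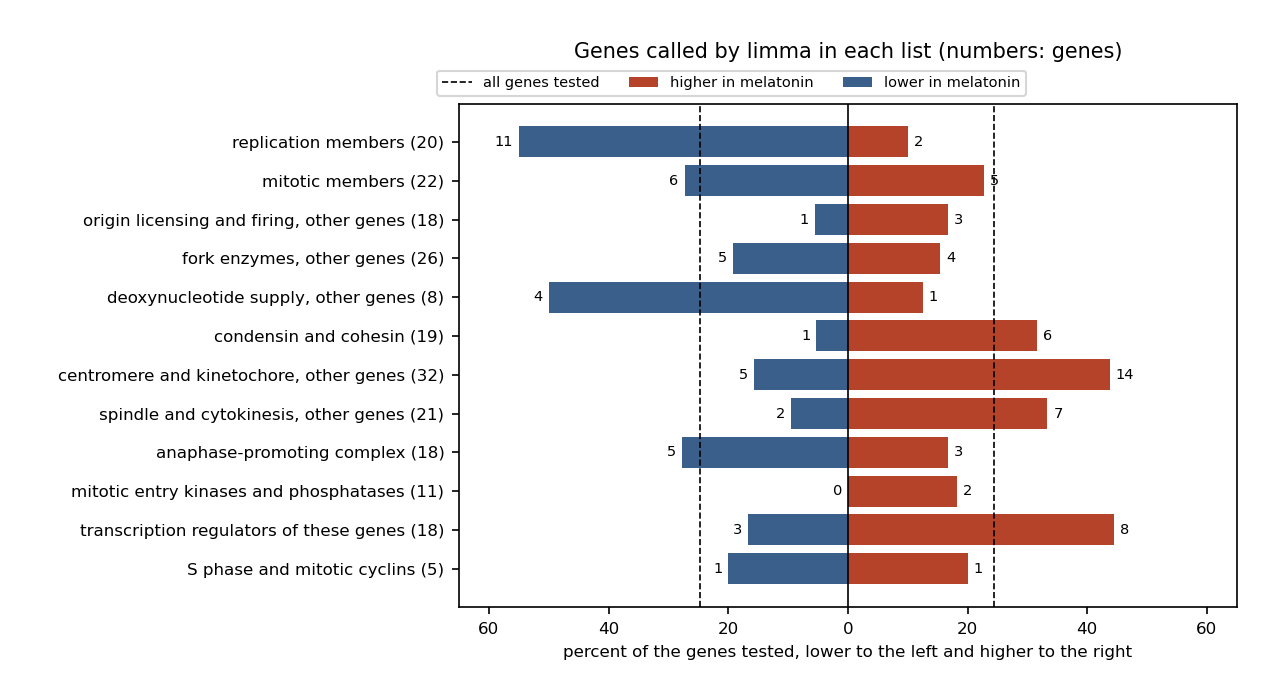
Bars give the percent of the genes tested in each list that limma called higher (right, red) or lower (left, blue) in melatonin, with the number of genes at the bar end and the number tested in brackets. Dashed lines mark the shares over all genes tested, 24.5% higher and 24.7% lower. Replication members and deoxynucleotide supply reach furthest left.

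Among the transcription regulators of these genes, 8 rose and 3 fell of 18 tested, 44.4% and 16.7% beside the 30.7% and 26.4% of all genes whose mean reached 100. Under the length correction 7 were higher and 5 lower, and the median moved from 0.20 to −0.03. *E2f1*, an activator of S-phase genes, had 3674, 3085 and 2221 normalized counts in melatonin and 707, 1348 and 1833 in vehicle, a rise of 1.28 (SE 0.31, adjusted p = 0.0093 by limma) with wide spread in both groups. *E2f4*, the factor of the repressive DREAM complex, had 3916, 3778 and 3847 against 6700, 6857 and 6925, a fall of 0.83 (SE 0.07, adjusted p = 6.1e-05 by limma). The pocket protein *Rbl1* (p107) rose by 0.76 (SE 0.09), and the DREAM core subunits *Lin52* and *Lin37* by 0.77 (SE 0.11) and 0.60 (SE 0.09), while *Mybl2* (B-Myb), which joins the mitotic activator complex, fell by 0.57 (SE 0.09), all with adjusted p-values of 0.0011 or less by limma. *Foxm1*, the other mitotic activator, had 2424, 2093 and 2242 against 2042, 2018 and 1986 and was not called (0.16, SE 0.08). *Rbl2* (p130), a pocket protein of resting cells, was at −0.23 (SE 0.08, adjusted p = 0.052 by limma), and was called lower after the length correction (−0.47).

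The other regulators called were *E2f5* (0.64), *E2f6* (0.63), *Tfdp2* (0.66), *Rb1* (0.56) and *E2f3* (−0.50). In *Rb1* and *E2f3* the groups overlapped, and in leave-one-out fits they kept their calls in 2 and 1 of 6. *Rb1* also lost its call under the length correction (0.32). *E2f2*, *E2f7*, *E2f8*, *Tfdp1* and *Lin9* were not called, at −0.14, 0.01, 0.04, 0.03 and 0.24, although *E2f2* was called lower after the length correction (−0.39). Of the cyclins, *Ccne2*, which acts at the entry into S phase, had 1729, 2012 and 1648 against 1287, 1329 and 1231 and rose by 0.48 (SE 0.09, adjusted p = 0.0033 by limma). *Ccnb1*, the mitotic partner of Cdk1, had 5592, 4980 and 4191 against 6713, 7028 and 6495 and fell by 0.46 (SE 0.11, adjusted p = 0.0069 by limma). *Ccna2*, *Ccnb2* and *Ccne1* were not called, at −0.12, −0.17 and 0.19, and after the length correction the rise of *Ccne2* was not called (0.24) and *Ccna2* was called lower (−0.32).

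The cells carried the markers of ILC2s, with 11 of 11 above the floor. Here a marker was counted as above the floor if it passed 3 counts in at least 1 sample, not in every sample. The sums of the ILC2 markers lay between 126829 and 146791 normalized counts in melatonin and between 186868 and 199723 in vehicle. The cytokine gene *Il5* alone accounted for 40304 to 57764 and 78846 to 85795 of these. Marker sums of other cells were far below those of ILC2s, and several were lower in melatonin. Some were nonetheless above the values of single members such as *Gins1*, with 484 to 604 in vehicle. For T cells, 2 of 6 markers were above the floor and their sum was 458 to 867 against 1196 to 1323, with *Cd4*, *Cd8a*, *Cd8b1* and *Cd5* at the floor or not listed. For macrophages and monocytes, 5 of 5 were above it with sums of 256 to 690 against 1056 to 1259, and for NK cells 4 of 5, with 19.6 to 30.6 against 203 to 266. For endothelial cells and fibroblasts 1 of 5 was above it, *Pecam1*, with 310 to 416 against 1001 to 1066. Epithelial sums (6 of 6 markers), 1058 to 1261 against 939 to 2316, overlapped, although *Epcam* alone was higher in all 3 melatonin samples, 1016 to 1230 against 623 to 745. The sums of eosinophils, mast cells and basophils (2 of 6) also overlapped, 1.87 to 37.2 against 9.37 to 18.9. The lowest of these sums was itself under the floor. The part of such cells in the values of the replication and mitotic genes was not tested.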

How the data were processed

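Total RNA of 6 aILC2 samples, 3 per group, was sequenced as cDNA on an Illumina NextSeq. The study's methods give 10 pg of input RNA and the labels 10 ng. Per the labels and methods, the authors aligned trimmed reads to mm39 with STAR within Partek Flow, divided them among Gencode M33 genes by the Partek E/M algorithm and scaled each sample by the median ratio of DESeq2. The deposited values are therefore a normalized signal of estimated counts, not whole counts, and 64.7% of them were whole multiples of the value of 1 read within 0.01. Columns were matched to samples by name. Names, positions and canonical transcript lengths came from GENCODE M39 on GRCm39, the same build.

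The main fit was limma 3.58.1 in R 4.3.3 (lmFit, eBayes with trend) on log2(value + 1), with a treatment term alone. Genes entered if 1 sample or more reached a value of 10, and adjusted p-values (Benjamini-Hochberg) were called under 0.05. This scale understates changes of low genes. The study used DESeq2 on counts, and the log scale was used here because the deposited values are not counts. Members and gene lists were chosen with earlier results of these data known. All members are named, with values per sample for those with the highest normalized count, the largest change or an unusual direction in their role. Of other lists, the largest calls in each direction and the gene with the highest normalized count are named. Near copies were found by aligning member transcripts to those of other genes (at least 95% identity over 300 bases). The main fit did not pair samples by replicate number. Alternatives were other pseudocounts, filters, scalings, thresholds and weights, voom, a replicate block, each sample left out, a length correction (lowess, span 0.3) and, chosen after seeing the data, sums with processed pseudogenes. A marker list with an item withheld for evaluation is not reported here.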

Additional observations from a re-analysis of the deposited data

How the results depend on the processing

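Of the 24 members called, all 24 kept their call with pseudocounts of 0.1 and 10, without a filter, with a mean of at least 100, with array weights, by voom and summed with processed pseudogenes. Scaling to the same total kept 22, upper quartile scaling 22, quantile normalization 20 and limma without the trend 14. Leaving out a sample kept 14 without vehicle replicate 1, 2 or 3, 17 without melatonin replicate 2, 21 without melatonin replicate 1 and 20 without melatonin replicate 3, and 13 members kept their call in all 6 of these fits. No called member changed sign in any fit. The cause of these changes was not tested, and a fit with a sample left out also has fewer samples.

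The rises were least stable. Replication genes called higher (2) numbered 1 without the trend, 1 at an adjusted p under 0.01, 0 at a fold change of at least 0.5 in size, 0 after the length correction and between 1 and 3 with a sample left out. Mitotic genes called higher (5) numbered 1, 1, 0 and 0 in the same order, 3 with upper quartile scaling and between 1 and 6 with a sample left out. Replication genes called lower (11) numbered 7 under 0.01, 2 at 0.5 and between 7 and 12 with a sample left out, and mitotic genes called lower (6) 1 at 0.5. The other listed genes called higher (49) numbered 28 under 0.01, 19 at 0.5 and 32 after the length correction, and those called lower (27) 14, 13 and 51, with 41 under upper quartile scaling and between 17 and 36 with a sample left out. Over all genes, 2188 were higher and 2267 lower under 0.01, and 2334 were higher at 0.5.

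The median of replication genes (−0.25) was −0.36 after the length correction and −0.13 with quantile normalization, and that of mitotic genes (0.01) was −0.09 after the length correction. Members near 0 changed sign. The length correction gave −0.19 for *Mcm3*, −0.17 for *Mcm6*, −0.22 for *Mcm10*, −0.03 for *Rfc5*, −0.06 for *Top2a*, 0.20 for *Birc5*, −0.10 for *Bub1*, −0.12 for *Cenpe* and −0.18 for *Tpx2*. Upper quartile scaling gave −0.02 for *Mcm6*, *Mcm10* and *Cenpe*. Quantile normalization gave 0.00 for *Mcm10*, 0.06 for *Pold1*, 0.13 for *Birc5*, −0.01 for *Cenpe* and 0.01 for *Nusap1*. Scaling to the same total gave 0.01 for *Pole*, 0.03 for *Pold1*, 0.03 for *Birc5* and 0.02 for *Cenpf*, and array weights gave 0.01 for *Pole*, 0.02 for *Pold1* and 0.01 for *Birc5*. With a sample left out, *Mcm3* ranged from −0.02 to 0.12, *Mcm6* ranged from −0.05 to 0.11, *Mcm10* ranged from −0.07 to 0.12, *Pole* ranged from −0.06 to 0.02, *Pold1* ranged from −0.07 to 0.07, *Birc5* ranged from −0.05 to 0.01, *Cenpe* ranged from −0.02 to 0.07 and *Cenpf* ranged from −0.07 to 0.07.

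The replicate block kept 21 of the 24 calls and left 3 mitotic genes called higher, having lost *Rfc4*, *Prc1* and *Ect2*. Deviations of samples with the same number correlated at −0.054, 0.00644 and −0.0483, and those of samples with different numbers at −0.0638 to 0.113. Samples with the same number thus shared no more than others did. Pairs with little shared variation would give the same, so whether the numbers pair the samples cannot be told. In the shorter promoter window, of the last 100 bases before and 50 after the start, E2F motifs lay in 31.2% of replication, 0.0% of mitotic and 0.507% of all promoters and CHR elements in 12.5%, 78.9% and 9.87%.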
